A study of Homo sapiens with 9 samples.

Results

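Depletion of DBC1, the protein encoded by the gene CCAR2, was examined in HEK293 cells, an established line from human embryonic kidney, by comparing 3 arrays of cells transfected with a DBC1 small interfering RNA (siDBC1) with 3 arrays of cells given a control siRNA (siCTR). These 6 arrays of the 9 in the series were chosen by their labels alone, and each gave 1 log2 expression value for each of 22011 probe sets. All cells were grown in medium with serum and harvested 48 h after transfection, and the 3 arrays per siRNA came from independent experiments, per the series' design. The siRNAs were of the stealth type, and how many siRNA sequences each group received was not given in the sources used here. The remaining 3 arrays, labelled ZNF326 siRNA (siZNF326), entered the model as a further group that helps to estimate the spread.

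CCAR2 is a nuclear protein best known for binding the deacetylase SIRT1 and for its part, together with the zinc finger protein ZNF326, in a complex called DBIRD. That complex sits between RNA polymerase II and newly made messenger ribonucleoprotein particles, where it affects transcript elongation and exon inclusion. Much of what is described below belongs to the integrated stress response, in which phosphorylation of the initiation factor eIF2 lowers general protein synthesis but favours translation of the transcription factor ATF4. ATF4 and its partners then switch on genes of amino acid uptake and synthesis and of tRNA charging, together with genes that restrain growth.

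ATF4 with partners of the C/EBP family is known to bind a composite element, searched here as TGATGNAA on either strand. Because many genes of this program were lower together in siDBC1, 5 of their promoters with the element are shown, 1 from each functional class described below. They are 300-base RefSeq windows on GRCh38.p14, from 250 bases before to 50 bases after the start of the gene, written 5′ to 3′ on the strand of the gene with the element in capitals. CHAC1 lies on the plus strand (chr15:40953221-40953520), ASNS on the minus strand (chr7:97872359-97872658), SLC7A1 on the minus strand (chr13:29595639-29595938), MARS1 on the plus strand (chr12:57487818-57488117) and ATF3 on the plus strand (chr1:212565157-212565456).
CHAC1: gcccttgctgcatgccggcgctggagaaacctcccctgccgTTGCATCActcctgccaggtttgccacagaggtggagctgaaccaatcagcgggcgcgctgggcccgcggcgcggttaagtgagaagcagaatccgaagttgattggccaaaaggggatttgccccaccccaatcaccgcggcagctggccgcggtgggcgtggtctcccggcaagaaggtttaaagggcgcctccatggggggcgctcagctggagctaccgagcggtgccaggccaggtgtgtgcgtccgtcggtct
ASNS: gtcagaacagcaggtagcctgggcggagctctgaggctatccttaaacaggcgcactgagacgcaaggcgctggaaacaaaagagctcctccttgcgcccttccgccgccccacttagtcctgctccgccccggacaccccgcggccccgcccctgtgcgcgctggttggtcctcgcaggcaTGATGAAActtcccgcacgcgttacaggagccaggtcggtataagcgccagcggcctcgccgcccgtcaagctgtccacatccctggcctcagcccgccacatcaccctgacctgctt
SLC7A1: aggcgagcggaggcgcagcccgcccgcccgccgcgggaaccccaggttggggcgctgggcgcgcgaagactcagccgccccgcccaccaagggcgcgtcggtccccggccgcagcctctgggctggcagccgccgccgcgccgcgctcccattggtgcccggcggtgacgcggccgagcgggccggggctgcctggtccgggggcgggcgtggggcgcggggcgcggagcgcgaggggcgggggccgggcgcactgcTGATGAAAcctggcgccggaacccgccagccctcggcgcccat
MARS1: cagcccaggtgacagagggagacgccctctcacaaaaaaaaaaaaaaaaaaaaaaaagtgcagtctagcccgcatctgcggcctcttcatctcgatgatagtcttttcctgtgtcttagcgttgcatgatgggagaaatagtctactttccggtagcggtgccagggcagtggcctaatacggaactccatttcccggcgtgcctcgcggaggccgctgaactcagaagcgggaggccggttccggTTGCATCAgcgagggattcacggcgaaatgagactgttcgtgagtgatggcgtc
ATF3: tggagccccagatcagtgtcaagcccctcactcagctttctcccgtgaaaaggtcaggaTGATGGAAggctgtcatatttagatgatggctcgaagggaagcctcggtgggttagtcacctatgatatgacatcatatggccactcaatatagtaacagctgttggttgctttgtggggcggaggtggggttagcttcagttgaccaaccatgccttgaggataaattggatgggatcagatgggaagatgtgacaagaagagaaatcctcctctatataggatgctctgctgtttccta
The element began 209 bases before the start site in CHAC1, 68 before it in ASNS, 4 before it in MARS1, 191 before it in ATF3 and 7 after it in SLC7A1. Of the 51 measured genes of the program with a window, 14 held it (27.5%), against 1003 of 27305 windows of all genes (3.67%) and 269 of 11386 windows of measured genes (2.36%). Genes of the program that were lower in siDBC1 by the unadjusted rule defined below held it in 8 of 30 windows (26.7%), and the other measured genes of the program in 6 of 21 (28.6%). The element was thus about as frequent in both. The list gathers genes of a program known to be run by ATF4, so its excess over all windows says nothing about siDBC1. A match of letters is no evidence of binding.

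The CCAR2 transcript, the target of the siRNA, read 7.67, 7.67 and 7.84 in siCTR replicates 1, 2 and 3 and 6.5, 6.54 and 6.65 in siDBC1 replicates 1, 2 and 3, on the log2 scale. Every siDBC1 array lay below every siCTR array. The transcript fell by 1.16 (95% interval from −1.35 to −0.98, SE 0.079, limma adjusted p = 0.0116), which is 2.24-fold. Its adjusted p exceeded 0.05 when any of siCTR replicate 2, siDBC1 replicate 1, siDBC1 replicate 2 or siZNF326 replicate 3 was left out (0.0843, 0.122, 0.0544 and 0.0629), while the difference stayed between −1.21 and −1.11. Adding a replicate block gave 0.103, and fitting the 6 arrays alone gave 0.253. In a bulk culture, fewer cells with a transcript and less of it per cell cannot be told apart. Neither its paralog CCAR1, at 0.20 (interval from −0.47 to 0.87), nor SIRT1, at −0.06 (interval from −0.62 to 0.51), passed the test. ZNF326 read 5.25, 5.64 and 5.76 in siCTR and 6.24, 5.64 and 7.32 in siDBC1, and its difference of 0.85 did not pass either (adjusted p = 0.844).

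The arrays differed in ways whose part in the results was not tested. Medians of the 6 arrays ran from 5.58 to 5.89. In 27.5% of probe sets at least 2 of the 6 arrays held equal values. A small spread within a group is thus not by itself a measure of agreement between experiments. The siDBC1 replicates stood apart from each other: on the main axis of variation within groups, which held 53% of it, replicate 2 lay at 0.57, replicate 3 at −0.62 and replicate 1 at 0.044. For 8636 of 14232 genes (60.7%) replicates 2 and 3 lay on opposite sides of the siCTR mean. Across these genes, which share the arrays and are not independent, the distance of replicate 2 from the siCTR mean correlated with expression level at −0.338, that of replicate 3 at 0.305 and that of replicate 1 at 0.020. The 12 measured markers of HEK293 had log2 levels from 5.68 (EYA1) to 10.4 (KRT8) in siCTR, and 0 of them passed either rule. Median levels of the marker lists were 6.54 for HEK293, 3.91 for haematopoietic cells, 4.70 for fibroblasts and 4.75 for epithelium. Levels of different probe sets cannot be compared strictly and no detection values were used, so these values do not settle the identity of the cells.

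Of the 22011 probe sets 8 were called at an adjusted p below 0.05 (0.0363%), 2 higher (0.00909%) and 6 lower (0.0273%). Besides CCAR2 they include CHAC1, ASNS, VEGFA and POLR2L, a lower probe set without a symbol, and 2 probe sets shared by several genes, 1 in each direction, which are not named. Leaving out single arrays kept the call of CHAC1 in 4 of 9 cases and those of ASNS, VEGFA and POLR2L in 0 of 9. Across those omissions ASNS ranged from −1.11 to −0.94, VEGFA from −1.31 to −1.11 and POLR2L from 0.93 to 1.06. Adding a replicate block, or fitting only the 6 arrays, left 0 probe sets called (1360 and 1100 at an unadjusted p below 0.05 in limma), and with an intensity trend in eBayes ASNS and VEGFA were not. POLR2L also lost its call after quantile normalization (adjusted p = 0.0650). To describe differences beyond these, a second and weaker rule was used: an unadjusted p below 0.05 with no overlap between the 3 siDBC1 and the 3 siCTR arrays. It took in 1117 probe sets (5.07%), 646 higher (2.93%) and 471 lower (2.14%). A test at 0.05 alone passes about that total share of probe sets where nothing differs. The size of the set is therefore no evidence of a response. A count near these shares is no result about a group of genes. The balance of directions moved with the scaling of the arrays, with 846 up and 995 down after quantile normalization against 738 up and 798 down with the arrays centred on their medians. Higher probe sets numbered 1439 without siDBC1 replicate 2, and lower ones 1276 without siDBC1 replicate 3. Only genes past the adjusted test are said below to have risen or fallen; the others are given by their values.

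The larger differences were downward. Among the probe sets with 1 gene symbol and a mean above the median of all probe sets, 538 met the weaker rule, 306 of them higher and 232 lower in siDBC1. At least 2-fold differences were seen in 20 of the lower ones and in 3 of the higher ones, and at least 1.5-fold differences in 92 and 34. The plot of the difference against expression level shows this asymmetry.

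**Figure D1:**
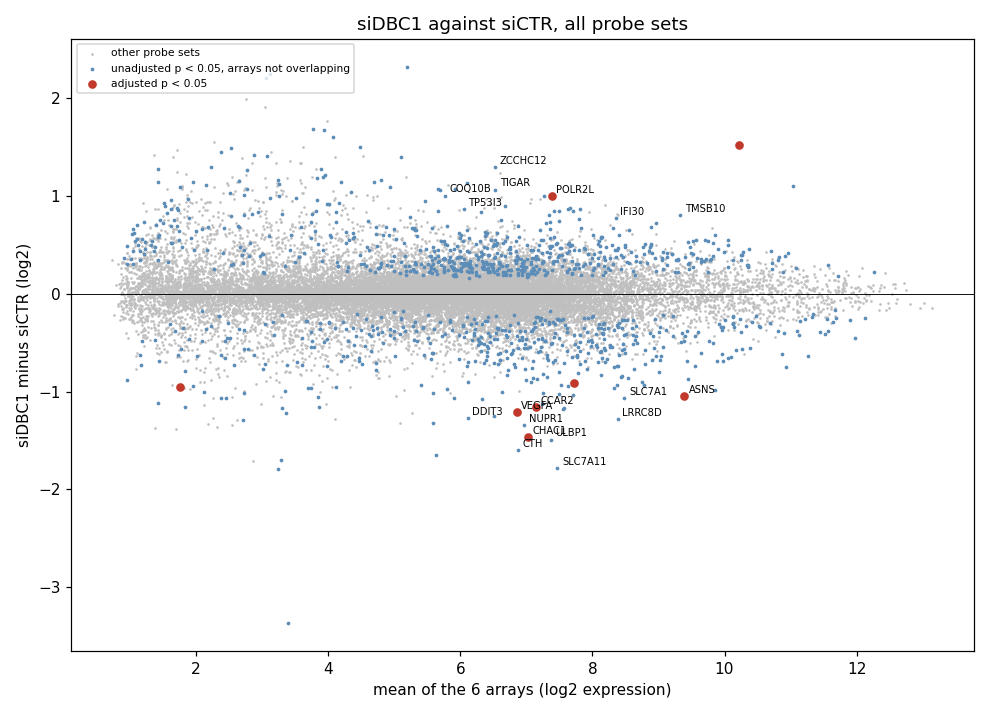
Each point is a probe set, with its mean log2 expression over the 6 arrays on the horizontal axis and siDBC1 minus siCTR (log2) on the vertical axis; red marks the 8 probe sets with an adjusted p below 0.05 and blue those that met the weaker rule. Among the named genes, the largest negative differences, such as SLC7A11 at −1.78 and CTH at −1.60, exceed the largest positive ones, such as ZCCHC12 at 1.29 and TIGAR at 1.07.

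The 15 largest negative differences of this set were those of SLC7A11, CTH, ULBP1, CHAC1, NUPR1, LRRC8D, DDIT3, DDR2, VEGFA, PCK2, ZFAND1, CCAR2, STC2, NIBAN1 and SLC7A1, and ran from −1.78 to −1.07. Of these, 9 belong to the 61 measured genes of the stress program as listed here. The list was drawn up with earlier results of these data known, so its direction is not independent evidence. Within the program 55 genes were below siCTR and 6 above it, with a median difference of −0.61 (1.52-fold) against 0.013 over all 14232 genes. By the adjusted test 3 of the 61 fell, CHAC1, ASNS and VEGFA, against 0.0281% of all genes. By the weaker rule 37 were lower, against 2.07% of all genes, and 1 was higher, against 2.75%. In the fifth of genes with the highest levels those shares were 4.85% and 4.50%. Of the 61 members, 57 had a mean above the median of all probe sets. Relative to the siCTR mean, the median member lay at −0.57, −0.86 and −0.40 in siDBC1 replicates 1, 2 and 3 and at −0.11, −0.06 and 0.15 in the siCTR replicates, so that all siDBC1 arrays lay below all siCTR arrays. It was −0.48 without siDBC1 replicate 2 and −0.70 without replicate 3. The siZNF326 arrays lay at −0.51, −0.72 and −0.80, also below all siCTR arrays, so the shift was not particular to siDBC1.

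How many members passed the adjusted test depended on the setting. It was 21 of 61 after quantile normalization, where 0.236% of all probe sets were called lower, and 17 of 61 with the arrays centred, where that share was 0.164%. It was 1 with an intensity trend in eBayes, 0 with the replicate block, 0 with only the 6 arrays in the fit, and 0 or 1 in each of the 9 omissions of 1 array. All of these were lower in siDBC1. The classes of the program are described next, from the products that leave the cell or slow its growth to the factors that run it.

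Secreted and growth-arrest genes held the largest shift, with a median of −1.04, all 9 measured members below siCTR and 7 of 9 lower by the weaker rule. CHAC1, an enzyme that degrades glutathione, read 7.65, 7.65 and 7.94 in siCTR and 6.27, 6.26 and 6.32 in siDBC1. It fell 2.75-fold (log2 change −1.46, interval from −1.71 to −1.21, limma adjusted p = 0.0116), and the siDBC1 arrays differed among themselves by less than the siCTR arrays.

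VEGFA, the vascular growth factor, read 7.49, 7.25 and 7.63 in siCTR and 6.28, 6.05 and 6.42 in siDBC1, and fell 2.31-fold (limma adjusted p = 0.0494). INHBE, an activin subunit, read 6.24, 6.55 and 6.59 in siCTR against 4.87, 4.55 and 5.02. Its difference of −1.64 (SE 0.19) just missed the threshold (adjusted p = 0.0607), and every siDBC1 array was more than 1 log2 unit below every siCTR array. STC2, a secreted glycoprotein, was at −1.13 with siDBC1 arrays at 6.92, 6.29 and 6.80 against 7.84, 7.54 and 8.02. DDIT4, an inhibitor of the growth kinase complex mTORC1, was at −1.04, with arrays at 7.32, 6.91 and 7.32 against 8.04, 8.39 and 8.24. SESN2, a further inhibitor of that kinase complex, was at −0.47 and the lipoprotein receptor VLDLR at −0.78. ADM2 and FGF21, both peptide hormones, had the smallest differences, −0.21 and −0.04.

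Enzymes of amino acid synthesis and one-carbon metabolism showed a median difference of −0.90, and 8 of 10 were lower by the weaker rule. ASNS, which makes asparagine, read 9.86, 9.86 and 10.02 in siCTR and 8.96, 8.65 and 8.99 in siDBC1. It fell 2.06-fold (log2 change −1.04, limma adjusted p = 0.0494). All siDBC1 arrays were below all siCTR arrays, with replicate 2 the lowest.

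The pair of enzymes that make cysteine from homocysteine both met the weaker rule. CTH, the second of them, read 7.61, 7.47 and 7.93 in siCTR and 6.17, 5.46 and 6.57 in siDBC1, a difference of −1.60 (SE 0.30, adjusted p = 0.277). CBS, the first, varied less between arrays: 9.13, 9.20 and 9.42 against 8.36, 8.16 and 8.43, a difference of −0.93 (SE 0.11, adjusted p = 0.0874). PCK2, the mitochondrial carboxykinase, was at −1.18 (7.05, 6.81 and 7.05 against 7.90, 8.08 and 8.47). The serine pathway was represented by PHGDH, its first enzyme, at −0.56 and PSAT1, the next, at −0.87. The mitochondrial one-carbon enzymes that serine feeds, SHMT2 and MTHFD2, were at −0.69 and −0.99. ALDH18A1, of proline synthesis, and GOT1, a transaminase, differed by −0.04 and 0.02, and their signs turned in some omissions of 1 array.

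Amino acid transporters of the program showed a median difference of −0.66, and 7 of 12 were lower by the weaker rule. SLC7A11, which exchanges cystine for glutamate, had the largest negative difference of all named genes. It read 8.11, 8.30 and 8.68 in siCTR and 6.70, 5.85 and 7.19 in siDBC1, a difference of −1.78 (interval from −2.57 to −0.99, adjusted p = 0.293). The siDBC1 arrays were all lower but spread over more than 1 log2 unit, with replicate 2 the lowest and replicate 3 the highest.

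The heavy chain SLC3A2, which pairs with SLC7A11 and with SLC7A5, was at −0.71, with arrays at 8.52, 8.20 and 8.58 against 9.0, 9.10 and 9.34. SLC7A5, the light chain for large neutral amino acids, was at −0.96 (7.90, 7.68 and 7.95 against 8.63, 8.79 and 9.0). SLC7A1, which carries arginine and lysine, was at −1.07 (8.03, 7.61 and 8.21 against 8.82, 8.94 and 9.29). SLC6A9, a glycine transporter, had the smallest standard error of the class: 6.89, 6.93 and 6.93 against 7.45, 7.43 and 7.60, a difference of −0.58 (SE 0.075, adjusted p = 0.0947). SLC43A1 and SLC1A4, which carry neutral amino acids, were at −0.82 and −0.66. The others were not past the weaker rule, with SLC38A1 at −0.66, SLC38A2 at −0.49 and SLC1A5 at −0.32, all glutamine carriers, SLC36A4 at 0.09 and SLC7A3 at −0.01.

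Cytosolic aminoacyl-tRNA synthetases, which load tRNAs for protein synthesis, showed a median difference of −0.45, with 7 of 18 lower and 1 higher by the weaker rule. GARS1, for glycine, read 8.29, 7.98 and 8.29 in siCTR and 7.26, 7.48 and 7.38 in siDBC1 (−0.81). MARS1, for methionine, read 9.82, 9.90 and 10.07 against 9.26, 8.99 and 9.31 (−0.74). The remaining lower ones, WARS1, YARS1, CARS1, SARS1 and AARS1, ranged from −0.70 to −0.61. VARS1, for valine, was on the other side at 0.30, with arrays at 8.01, 7.77 and 8.03 against 7.57, 7.60 and 7.72. HARS1 (0.28) and FARSA (0.19) were also above siCTR without meeting the rule. The class depended on the array: its median distance was −0.40, −0.85 and −0.08 in siDBC1 replicates 1, 2 and 3, and the median difference was −0.21 without replicate 2 and −0.67 without replicate 3.

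The mitochondrial synthetases, encoded by separate nuclear genes, showed a median difference of 0.01, and 0 of 12 were past either rule. Their signs were mixed, from −0.25 for LARS2 to 0.54 for FARS2, and their median turned negative in 5 of the alternatives, among them quantile normalization (−0.017). No test of the cytosolic against the mitochondrial class was made.

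Transcription factors and feedback regulators showed a median difference of −0.44, and 8 of 12 were lower by the weaker rule. DDIT3, which encodes the factor CHOP, read 6.56, 6.70 and 6.97 in siCTR and 5.34, 5.38 and 5.70 in siDBC1, a difference of −1.27 (SE 0.14, adjusted p = 0.0607). NUPR1, a small chromatin protein induced by stress, was at −1.34 (6.34, 5.81 and 6.76 against 7.38, 7.54 and 8.0). CEBPG, a partner of ATF4, was at −0.93 (7.95, 7.56 and 8.21 against 8.72, 8.76 and 9.05). In each the 3 siDBC1 arrays lay below the siCTR arrays.

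TRIB3, a pseudokinase that restrains ATF4, read 7.05 in all 3 siDBC1 arrays against 7.48, 7.69 and 8.09 in siCTR (−0.70). PPP1R15A, the phosphatase subunit that reverses eIF2 phosphorylation, was at −0.46, and EIF4EBP1, an inhibitor of cap-dependent translation, at −0.58. ATF3 and JDP2, bZIP factors, were at −0.42 and −0.32. ATF4 itself differed by 0.01, ATF5 by −0.05, CEBPB by −0.21 and NFIL3 by −0.22, none past either rule. The ATF4 transcript can stay level while its protein changes, and protein was not measured here. The plot of the program by class sets these members side by side.

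**Figure D2:**
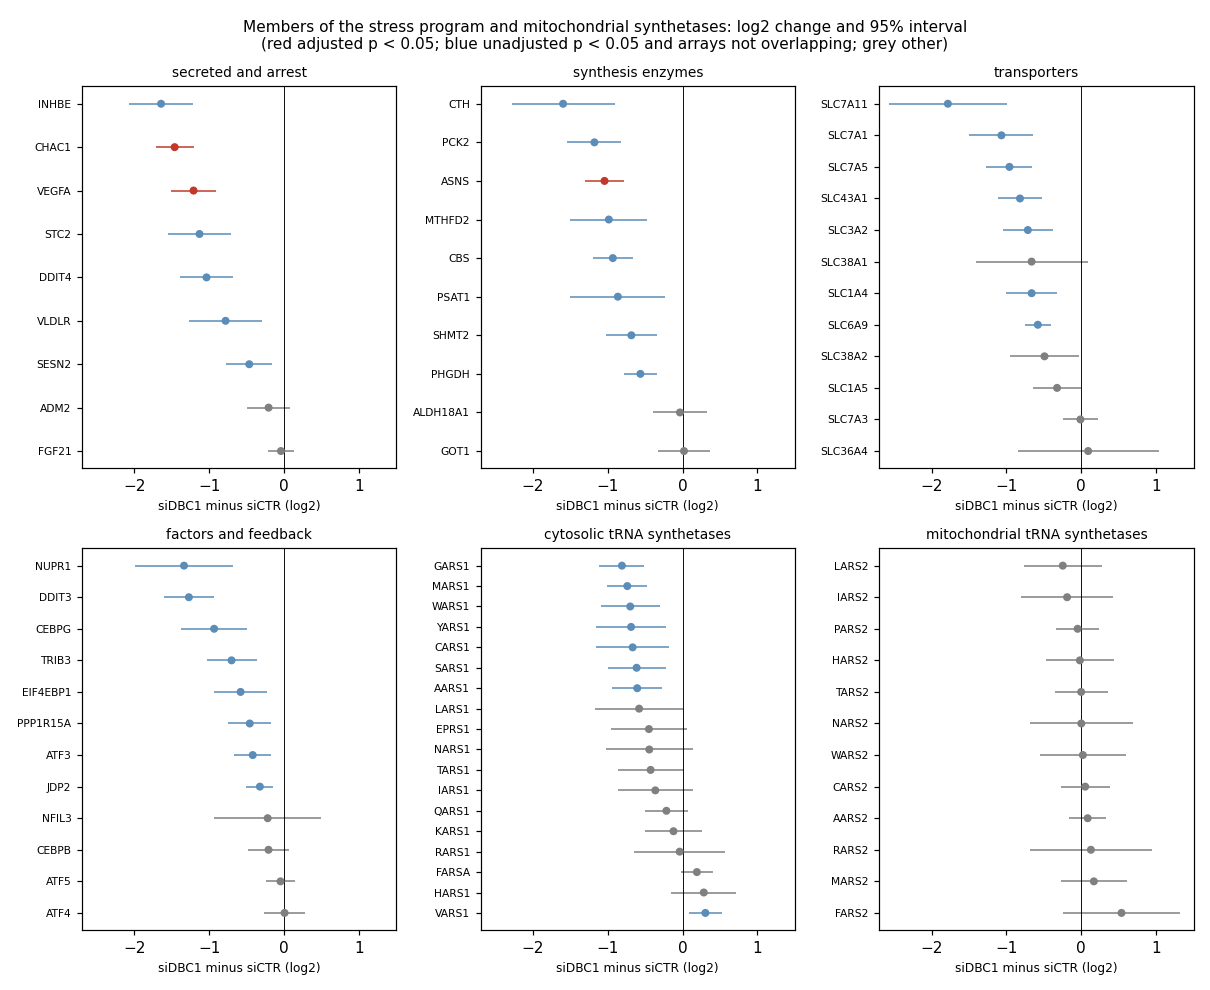
Points give siDBC1 minus siCTR (log2) for each measured gene of 6 classes with the 95% interval of the model; red marks an adjusted p below 0.05, blue the weaker rule and grey neither. The first 5 classes lie mostly left of 0, led by SLC7A11 at −1.78, INHBE at −1.64 and CTH at −1.60, while the 12 mitochondrial synthetases scatter around it.

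Large negative differences also appeared in genes outside the list. ULBP1, a cell surface ligand of the natural killer receptor NKG2D, read 8.01, 7.94 and 8.39 in siCTR and 6.64, 6.15 and 7.09 in siDBC1 (−1.49, adjusted p = 0.237). LRRC8D, a subunit of volume-regulated anion channels, was at −1.28 with arrays at 7.95, 7.28 and 8.0 against 9.18, 8.80 and 9.08. DDR2, a collagen receptor kinase, was at −1.25 with arrays at 5.97, 5.57 and 6.11 against 7.03, 6.95 and 7.43. NIBAN1, a gene known to respond to stress, was at −1.07 and ZFAND1, a zinc finger protein of stress granules, at −1.16. ZFAND1 varied most among the siDBC1 arrays (7.15, 6.09 and 7.71), whereas the siCTR arrays read 8.01, 8.11 and 8.31.

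Chaperones and degradation factors of the endoplasmic reticulum, which answer unfolded protein through other sensors as well, did not share the direction of the stress program. Their median was 0.07, with 3 of 19 higher and 2 lower by the weaker rule, and it was −0.088 without siDBC1 replicate 3. The higher ones were the chaperone CALR (10.58, 10.50 and 10.71 against 10.11, 10.11 and 10.21, a difference of 0.45), SDF2L1 at 0.46 and MANF at 0.23. The lower ones were XBP1, a transcription factor of this response, at −0.63 and HERPUD1, of the degradation machinery, at −0.74. HSPA5, the main chaperone of the compartment, differed by 0.14.

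Targets of hypoxia showed a median difference of −0.21, with 2 of 13 lower by the weaker rule. These were P4HA1, a collagen hydroxylase, at −1.02 and NDRG1 at −0.52 (8.50, 8.09 and 8.47 against 8.83, 8.95 and 8.83). VEGFA and DDIT4 were counted with the stress program and are not among these 13. The siDBC1 arrays of P4HA1 spread widely, at 6.97, 6.14 and 7.83 against 7.97, 7.93 and 8.10, and its difference was −0.60 without replicate 2 and −1.45 without replicate 3. The median distance of the list in the siDBC1 arrays was −0.20, −0.65 and 0.03, with replicate 2 lowest, and the median was −0.15 without that array and −0.30 without replicate 3. Glycolysis enzymes, many of which hypoxia also induces, showed a median difference of −0.02 whose sign turned under 3 alternatives, and 2 of 17 were lower by the weaker rule.

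Histones made in S phase for replication showed a median difference of −0.13 with 6 of 33 lower and 1 higher by the weaker rule. H3C10 at −0.77, H2AC16 at −0.63, H2AC6 and H2AC8, both at −0.57, H3C2 at −0.38 and H1-4 at −0.29 were the lower ones, and H1-3 stood at 0.49. The median was −0.26 without siDBC1 replicate 3 and −0.076 without siCTR replicate 3. Histone genes are near-identical copies, so their probe sets can share signal.

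Among the genes above siCTR, POLR2L was the only named one past the adjusted test. It encodes a small subunit shared by the 3 nuclear RNA polymerases. Its arrays read 6.89, 6.76 and 7.01 in siCTR and 7.82, 7.91 and 7.92 in siDBC1, and it rose 1.99-fold (log2 change 1.0, interval from 0.80 to 1.19, limma adjusted p = 0.0199). POLR2A, the largest subunit of RNA polymerase II, was at 0.51 and met the weaker rule. The other 8 measured subunits did not, with POLR2F at 0.38 and POLR2D at −0.26 at the ends of their range. The subunits' median of 0.14 turned to −0.07 without siDBC1 replicate 3, so only the values of single genes are given for this class.

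Among the elongation factors, 3 of 25 were higher and 1 lower by the weaker rule, against 2.75% and 2.07% of all genes. HEXIM1, which holds the elongation kinase P-TEFb inactive, was at 0.63 with arrays at 6.23, 6.04 and 6.59 against 5.57, 5.71 and 5.71. PAF1 was at 0.50, SUPT5H at 0.34 and ELOB at −0.36. The list median of 0.05 turned to −0.15 without siDBC1 replicate 3. Core spliceosome proteins showed a median difference of 0.10 with U2AF2 at 0.47, SF3B3 at 0.45 and SNRNP70 at 0.37 past the weaker rule, 3 of 29, and their median was 0.00055 without that array. SR proteins, which guide exon choice, showed a median difference of 0.02 with 0 of 10 past the rule, and the sign turned under 4 alternatives. Partners of CCAR2 showed a median difference of 0.02 with 0 of 15 past it, with 0.17 without siDBC1 replicate 2 and −0.02 without siCTR replicate 1.

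Targets of the tumour suppressor p53 lay mostly above siCTR. Those of cell death and redox control showed a median difference of 0.20, with 13 of 14 above siCTR and 4 higher by the weaker rule. TP53I3, an oxidoreductase, read 5.78, 5.46 and 5.61 in siCTR and 6.46, 6.41 and 6.58 in siDBC1, a difference of 0.87 (SE 0.11, adjusted p = 0.0874). BAX, a pore former of mitochondrial apoptosis, read 7.14, 7.20 and 7.53 against 8.07, 8.03 and 8.30 (0.84). The groups did not overlap for either gene, and the siDBC1 arrays lay close together.

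TIGAR, a regulator of sugar phosphate metabolism, was at 1.07 but spread widely (7.08, 6.34 and 7.78 against 5.84, 6.08 and 6.07), and the polymerase POLH was at 0.73. Targets of arrest and feedback showed a median difference of 0.24 with 8 of 11 above siCTR, and only the cell cycle inhibitor CDKN1A met the weaker rule. CDKN1A read 7.16, 6.82 and 7.22 in siCTR and 7.93, 7.84 and 7.98 in siDBC1 (0.85, adjusted p = 0.216). MDM2, the main inhibitor of p53, was at 0.39 and its arrays overlapped. Of both p53 lists siDBC1 replicate 2 lay near the siCTR mean (0.005 and −0.008), while replicate 3 lay at 0.59 and 0.62. Without replicate 3 their medians were 0.09 and 0.07, and without replicate 2 they were 0.40 and 0.45.

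Heat shock proteins, the chaperones of the cytosol and nucleus, showed a median difference of 0.31 (1.24-fold), with 13 of 14 above siCTR and 6 higher by the weaker rule. HSPA1A, HSPA1B, HSPA9, HSPB8, HSP90AB1 and HSF2 were listed but had no probe set with 1 gene symbol, so they are not among the 14. HSPB1, a small heat shock protein, read 7.97, 7.83 and 8.08 in siCTR and 8.59, 8.34 and 8.38 in siDBC1 (0.47). DNAJB1, a co-chaperone, was at 0.57 and HSPA2 at 0.55. HSPH1 and HSPA4L, of the HSP110 family, were at 0.85 and 0.86, with replicate 3 the highest at 8.49 and 8.84. HSPA8, the constitutive chaperone, was at 0.18. The mitochondrial pair HSPD1 and HSPE1 differed by −0.02 and 0.02. All 3 siDBC1 arrays lay above the siCTR arrays in this list, at 0.32, 0.18 and 0.56 against a siCTR maximum of 0.12, and its median was 0.19 without replicate 3 and 0.43 without replicate 2.

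Output genes of the ERK kinase pathway, which signals from growth factor receptors, showed a median difference of 0.27 with 5 of 13 higher by the weaker rule. DUSP6, a phosphatase that switches ERK off, read 4.52, 4.49 and 4.60 in siCTR and 5.39, 4.98 and 5.28 in siDBC1 (0.68, adjusted p = 0.282). The transcription factors ETV5 and ETV1 were at 0.60 and 0.58, CCND1, a cyclin of G1, at 0.34 and DUSP5 at 0.27. DUSP6, ETV5 and ETV1 have low levels and were left out by the alternative filter on low values. Of the 13 genes, 7 had a mean above the median of all probe sets. SPRY1 and SPRY2, inhibitors of the pathway, were below siCTR at −0.30 and −0.21 without meeting the rule. The 3 siDBC1 arrays were close together in this list, at 0.31, 0.21 and 0.34, all above the siCTR arrays.

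Immediate early genes, the first to answer growth signals, showed a median difference of 0.10 and array distances of 0.11, 0.13 and 0.14, the tightest of the lists named here. Of 19 members 4 were higher by the weaker rule. JUNB read 6.35, 6.12 and 6.27 in siCTR and 6.86, 6.70 and 6.83 in siDBC1 (0.55, adjusted p = 0.170), while IER3 was at 0.42, IER2 at 0.35 and EGR1 at 0.25. FOS was at 0.19 and MYC at −0.24, neither past the rule. Of the NF-kB targets 3 of 15 were higher, NFKBIA, the inhibitor of the factor, at 0.75, CXCL2 at 0.30 and RELB at 0.29, and the list median was 0.09, or 0.05 without siCTR replicate 1. Genes of the interferon and double-stranded RNA response, which an siRNA can set off, showed a median difference of 0.08 with 1 of 22 higher by the weaker rule, and 0.03 without siDBC1 replicate 3. The higher member was IFIT1, whose difference ranged from 0.40 to 0.91 in the omissions of 1 array. Only 4 of these 22 had a mean above the median of all probe sets, which limits what the list can show. The siRNA machinery showed a median difference of 0.13 with 1 of 13 higher (DGCR8 at 0.32), and its median was 0.31 without siDBC1 replicate 2 and 0.03 without either siDBC1 replicate 3 or siCTR replicate 1.

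Of the cytoskeleton genes 10 of 24 were higher by the weaker rule, and 0 lower, with a median of 0.21. The share of higher genes was 2.75% over all genes and 4.50% in the fifth with the highest levels. Of the 24, 20 had a mean above the median of all probe sets. TMSB10, an actin monomer binder, read 8.93, 8.86 and 9.0 in siCTR and 9.83, 9.55 and 9.81 in siDBC1, a difference of 0.80 (SE 0.099, adjusted p = 0.0874), and the groups were far apart relative to their spread. MYH9, a non-muscle myosin heavy chain, was at 0.68, and MYL6, a myosin light chain, at 0.55. The actin regulators PFN1 and CFL1 were at 0.43 and 0.35, the crosslinker ACTN4 at 0.27 and the small GTPases RHOC and RHOB at 0.38 and 0.21. Of the microtubule genes MAP1A was at 0.52 and TUBB6 at 0.33, while MAP1B was at −0.48 without meeting the rule. The median was 0.31 without siDBC1 replicate 2 and 0.10 without replicate 3.

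The plot of lists by array shows how far these shifts were shared by the replicates.

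**Figure D3:**
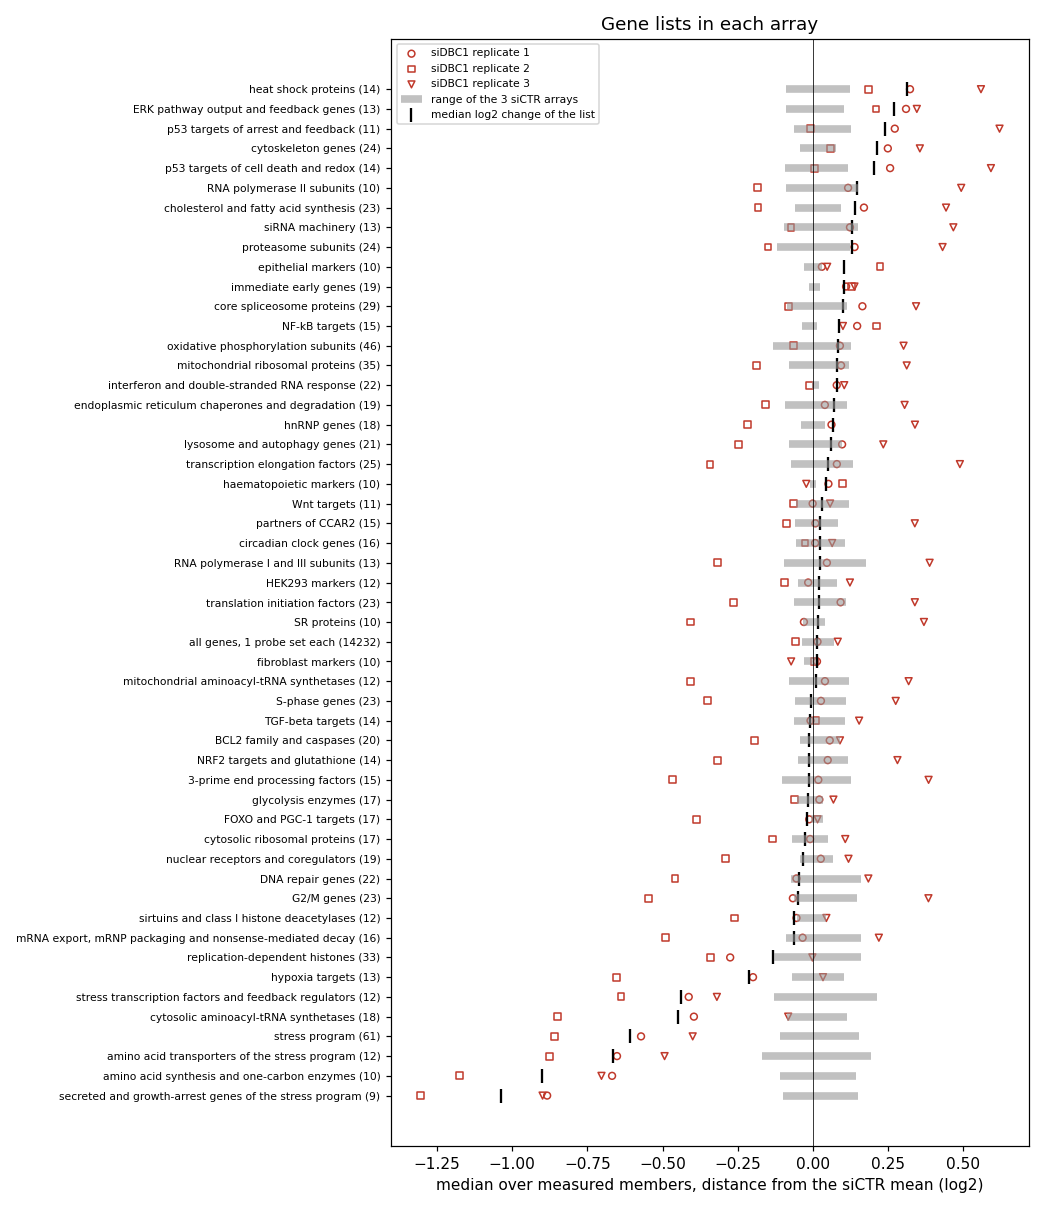
For each gene list, with its number of measured genes, the red symbols give the median distance of its members from the siCTR mean (log2) in each siDBC1 array, the grey bar the range of the 3 siCTR arrays and the black tick the list's median difference. The stress program's arrays lie at −0.57, −0.86 and −0.40 and the heat shock list's at 0.32, 0.18 and 0.56, while in many other lists replicate 2 and replicate 3 lie on opposite sides of 0.

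Lysosome and autophagy genes showed a median difference of 0.06, with 4 of 21 higher and 2 lower by the weaker rule, and the median was −0.13 without siDBC1 replicate 3. CTSA, a lysosomal carboxypeptidase, read 7.18, 7.20 and 7.30 in siCTR and 8.07, 7.95 and 8.28 in siDBC1 (0.87, SE 0.11, adjusted p = 0.0947). GLA, alpha-galactosidase, was at 0.67 and the proton pump subunits ATP6V0D1 and ATP6V1A at 0.54 and 0.48. LAMP1, a major membrane protein of the lysosome, stood on the other side: 7.18 in all 3 siCTR arrays and 6.38, 6.24 and 6.75 in siDBC1 (−0.72, adjusted p = 0.293). ATG13, of the autophagy initiation complex, was at −0.52.

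Respiratory chain and ATP synthase subunits showed a median difference of 0.08 with 5 of 46 higher by the weaker rule, led by NDUFB2 at 0.62 and COX7B at 0.51. Omitting siDBC1 replicate 2 put their median at 0.20, omitting replicate 3 at 0.02 and omitting siCTR replicate 1 at 0.0067. Proteasome subunits showed a median difference of 0.13, with 21 of 24 above siCTR but 0 past the weaker rule, and turned to −0.01 without siDBC1 replicate 3. The median of the cholesterol and fatty acid synthesis genes, 0.14, turned to −0.05 without that array, with 1 of 23 higher and 1 lower. S-phase and G2/M genes showed median differences of −0.01 and −0.05, and replicates 2 and 3 lay on opposite sides, at −0.35 and 0.28 for S phase and −0.55 and 0.38 for G2/M. By the weaker rule 2 of 23 S-phase genes were higher, and of 23 G2/M genes 1 was higher and 1 lower.

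In the remaining 19 lists, among them hnRNP genes, ribosomal proteins, DNA repair, circadian clock and the targets of NRF2, TGF-beta and Wnt signalling, medians lay between −0.06 and 0.10. Each held at most 2 members past the weaker rule in either direction and 0 past the adjusted test.

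Among the 15 largest positive differences, taken like the negative ones from probe sets with 1 symbol that met the weaker rule above the median level, those outside these lists were led by ZCCHC12, a transcriptional coactivator, IPO8, a nuclear import receptor, and COQ10B, of coenzyme Q function. ZCCHC12 read 5.86, 5.65 and 6.11 in siCTR and 7.12, 6.73 and 7.65 in siDBC1 (1.29, adjusted p = 0.339). COQ10B and IPO8 were both at 1.0. ACSL4, which activates polyunsaturated fatty acids, was at 0.90 and IMP3, of ribosomal RNA processing, at 0.80. IFI30, a lysosomal thiol reductase, read 7.75, 8.03 and 8.13 against 8.77, 8.54 and 8.91 (0.77). For ZCCHC12, COQ10B, IPO8, ACSL4 and IMP3, siDBC1 replicate 3 was the highest array and replicate 2 the lowest of the group. The plot of single arrays shows genes of both directions.

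**Figure D4:**
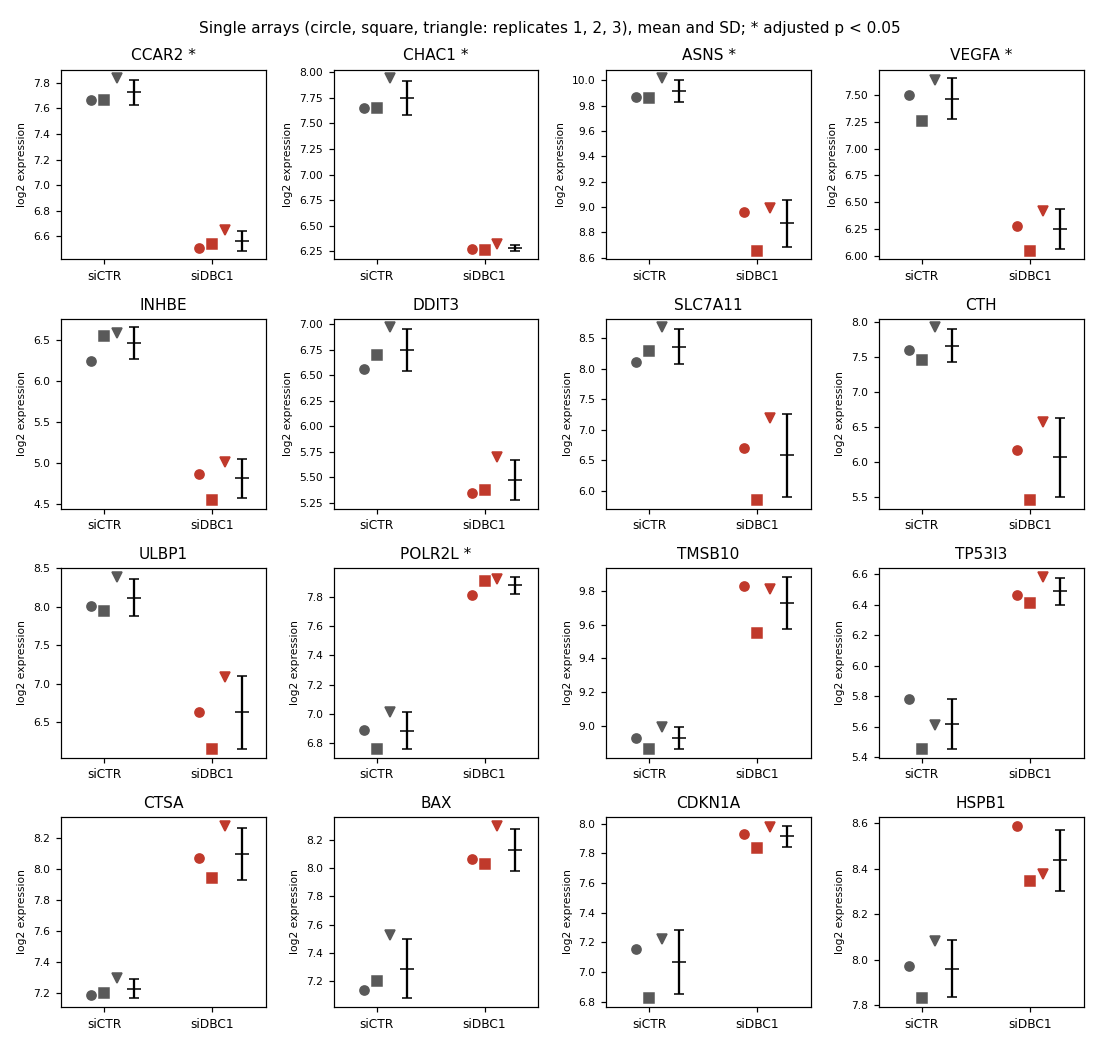
Log2 expression of 16 genes in each siCTR (grey) and siDBC1 (red) array, with circles, squares and triangles for replicates 1, 2 and 3 and the mean ± SD of each group beside them; an asterisk marks an adjusted p below 0.05, and each panel has its own axis range that does not start at 0. In every panel all 3 siDBC1 arrays lie on one side of all 3 siCTR arrays, tightly for CCAR2 and CHAC1 and with a wide spread for SLC7A11, CTH and ULBP1.

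Because DBIRD is studied for transcript elongation, genes were also ranked by the genomic span from start to end. The 14205 genes with a span were split into 10 equal groups by length, the shortest up to 3.92 kb. The median difference was 0.038 in the shortest group and −0.002 in the longest. Genes higher by the weaker rule made up 4.22% of the shortest and 0.633% of the longest group, and lower ones 2.39% and 1.34%. Arrays disagreed on the longest group, with replicate 1 at 0.000 from the siCTR mean, replicate 2 at −0.20 and replicate 3 at 0.13. The part of this disagreement in the falling share of genes past the rule was not tested.

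**Figure D5:**
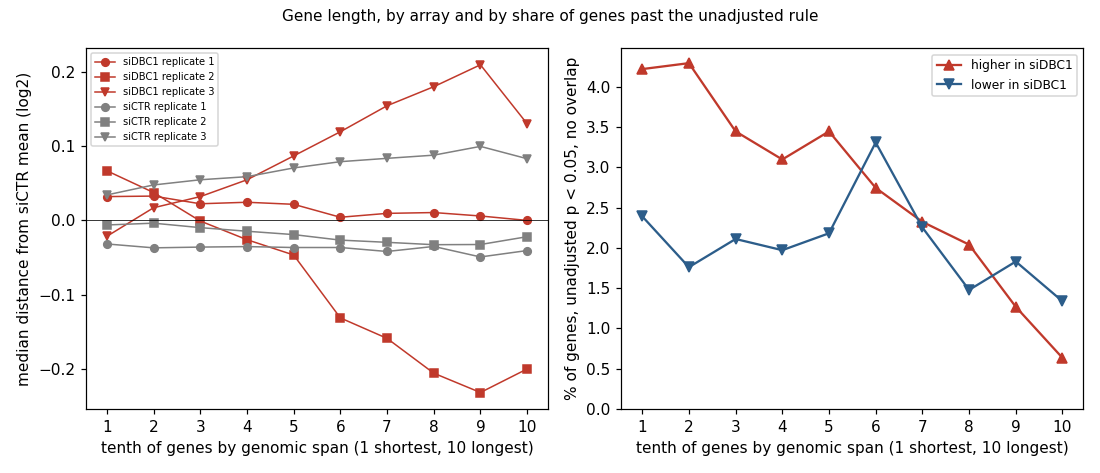
The left panel gives the median distance from the siCTR mean (log2) in each of the 6 arrays by group of genomic span, 1 the shortest and 10 the longest, and the right panel the percentage of genes higher or lower by the weaker rule. siDBC1 replicates 2 and 3 lie furthest apart in group 9, at −0.23 and 0.21, and closer in the longest group, at −0.20 and 0.13, while the share of higher genes drops from 4.22% to 0.633%.

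The other siRNA of the series gave a comparison that leaves out the siCTR arrays but shares the siDBC1 arrays with the one above. ZNF326 itself read 6.12, 5.56 and 5.81 in the arrays labelled siZNF326, which overlapped siCTR, so the depletion that label names was not seen in the transcript. Between siZNF326 and siDBC1 directly, 2 of 22011 probe sets were called (0.00909%). CCAR2 was 1.42 higher in siZNF326 (limma adjusted p = 0.0031), where it read 8.01, 7.95 and 7.99. GET3, which inserts tail-anchored proteins into the endoplasmic reticulum membrane and was chosen after its values were seen, was 1.21 lower in siZNF326 (limma adjusted p = 0.0219). It read 8.29, 8.37 and 8.45 in siCTR, 8.82, 8.70 and 8.86 in siDBC1 and 7.71, 7.61 and 7.44 in siZNF326, with no overlap between any of the groups. The median difference of the stress program between these groups was −0.02 and that of the heat shock list 0.05. Against the siCTR mean the stress program lay at −0.51, −0.72 and −0.80 in the siZNF326 arrays, and heat shock at 0.62, 0.35 and 0.23. Cytoskeleton genes lay at 0.50, 0.28 and 0.19 there, and p53 targets of cell death and redox at 0.81, 0.48 and 0.47. These lists thus shifted the same way under both labels, against the same controls. Hypoxia targets did not, at 0.23, −0.05 and 0.04. The cause was not tested. CHAC1 differed by −0.73 (adjusted p = 0.204), ASNS by −0.20 (adjusted p = 0.741) and VEGFA by 0.24 (adjusted p = 0.735), which does not show that the arrays of these labels are alike for them.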

How the data were processed

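Column-purified, DNase-treated total RNA of HEK293 cells went through a ribosomal RNA removal step and the Affymetrix whole-transcript labelling, per the labels' protocols. The deposited values are log2 expression values made by the authors with RMA, and the probe annotation refers to hg18, per the submitters' processing notes. No detection values were used here, and precision is limited by having 3 arrays per group.

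Of 22011 probe sets, 14432 carried 1 gene symbol, 2408 several (not named) and 5171 none, by the platform's annotation. DBC1 was read as CCAR2. With limma 3.58.1 (lmFit, eBayes) in R 4.3.3, a model of 3 groups was fitted to all 9 arrays without rescaling or filter. The two-sided moderated test of siDBC1 minus siCTR was adjusted by Benjamini and Hochberg over all probe sets, with a call below 0.05. It was checked on simulated data with noise independent between probe sets and arrays. That check does not cover the main axis of variation within groups seen in these arrays. The 50 gene lists used 1 probe set per symbol, that with the highest mean, and were described by counts and medians without a test.

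Named were CCAR2, ZNF326, CCAR1 and SIRT1, every called probe set with 1 symbol, the 15 largest differences in each direction by the weaker rule among probe sets above the median level, up to 8 members per list with the smallest p and members of opposite sign. Other list members are named to complete their class, after their values were seen. The comparison, lists and rules were chosen with earlier results of these data known. Alternatives were other scalings, a filter, variance models, a covariate, a replicate block, 6 arrays alone and omissions of 1 array.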

Additional observations from a re-analysis of the deposited data

How the results depend on the processing

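The count of 8 called probe sets was 46 with arrays centred on their medians (10 higher, 36 lower), 69 after quantile normalization (17 higher, 52 lower), and 4 with an intensity trend in eBayes, also with robust estimation. It was 419 with the first residual component as a covariate (179 higher, 240 lower), which removes spread by its construction. It was 0 with the 6 arrays alone and 0 with the replicate block (1100 and 1360 probe sets at an unadjusted p below 0.05 in limma). Without 1 array at a time it ranged from 0 to 4, the 0 arising when siDBC1 replicate 1, siCTR replicate 2 or siZNF326 replicate 3 was left out (1048, 979 and 1194 at an unadjusted p below 0.05). Higher probe sets by the weaker rule numbered 385 with the filter on low values and 432 to 1439 in the omissions of 1 array. Lower ones numbered 798 with centred arrays, 995 after quantile normalization and 440 to 1276 in the omissions. CCAR2 stayed at −1.16 with the 6 arrays alone (adjusted p = 0.253) and with the replicate block (adjusted p = 0.103), and ranged from −1.21 to −1.11 in the omissions. The pairing by number was checked by the correlation of deviations of same-numbered siCTR and siDBC1 arrays, 0.024, 0.188 and 0.255. Of the 6 arrays, 5 correlated best with the same-numbered array of the other group. These values do not settle whether same-numbered arrays belong together, so the replicate block stands beside the main fit.

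Signs turned for differences near 0. In the omissions of 1 array, CCAR1 ranged from −0.070 (without siDBC1 replicate 3) to 0.45, SIRT1 from −0.28 to 0.19 (without siDBC1 replicate 2), ALDH18A1 from −0.15 to 0.073 (without siDBC1 replicate 2, and 0.030 without siCTR replicate 3) and GOT1 from −0.087 (without siDBC1 replicate 3, and −0.033 without siCTR replicate 1) to 0.14. ATF4 ranged from −0.10 (without siDBC1 replicate 3) to 0.12, and was −0.0076 with centred arrays and −0.019 after quantile normalization, and ATF5 reached 0.026 without siCTR replicate 3. Array weights were estimated, but the estimation stopped before converging, so the results of that alternative were left out. The causes were not tested.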
